A study of Mus musculus with 46 samples.

Results

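The 9 genes described here encode receptor chains and transcription factors of interferon signalling: Ifnar1, Ifnar2, Ifngr1, Stat2, Irf9, Irf1, Irf5, Irf7 and Irf8. They were taken by symbol from a table of 53465 gene entries, and all 9 were found and passed the filter on low counts in every comparison. Type I interferons bind a receptor made of the Ifnar1 and Ifnar2 chains, which activates Janus kinases and leads to the complex ISGF3, of which Stat2 and Irf9 are subunits. ISGF3 enters the nucleus and binds the interferon-stimulated response element (ISRE) of its target genes, and Irf7, 1 of those targets, drives further production of type I interferon. Interferon gamma acts through a receptor with the Ifngr1 chain and on gamma-activated sites (GAS) of its target genes, with Irf1 as a well known target. Irf8 and Irf5 are expressed mainly in myeloid and B cells, where Irf8 takes part in macrophage and dendritic cell development and Irf5 in signalling from Toll-like receptors.

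The mice were C57BL/6, were at postnatal day 23, and gave mRNA libraries of cerebellum, kidney and liver. Both genotypes had 1 P195A allele of Adar, which changes the Z-DNA-binding domain of the RNA-editing enzyme ADAR1. The labels pair it with either p150neg, an allele without the interferon-inducible p150 form (P195A/p150-, called p150-negative here), or p150pos, which has it (P195A/p150+, called p150-positive). The comparison therefore asks what loss of p150 from the second allele does in mice whose first allele is P195A, and no mouse without P195A was analysed here. After 5 libraries holding RNA of other organs had been left out, the p150-negative group had 7 livers, 5 kidneys and 8 cerebella, and the p150-positive group had 7 libraries of each tissue, from 16 mice in all, most of which gave several tissues.

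Library totals of the 41 libraries ran from 0.27 to 6.24 M counts (median 2.95 M; M is 1000000), so a level of 1 CPM (count per M counts) rested on about 3 counts in a typical library. Liver, kidney and cerebellum markers were each high in their own tissue. The counts are per gene and cannot separate p150 from the shorter ADAR1 form, so they do not check the genotype; the median of Adar was 7.6 CPM in p150-negative livers and 10.9 CPM in p150-positive livers, 15.7 CPM in p150-negative kidneys and 18.0 CPM in p150-positive kidneys, and 28.0 CPM in p150-negative cerebella and 23.3 CPM in p150-positive cerebella. Several libraries stood apart. Thinned to 250000 counts, the kidney of animal 3 (p150-negative) showed 6863 genes and that of animal 5 (p150-positive) 10308 genes, against 12525 to 13609 in the other 10 kidneys. The cerebellum of animal 11 (p150-negative) showed 10051 genes, against 12989 to 14053 in the other 14. Irf9, Irf1 and Irf5 had 0 counts in the kidney of animal 3, and Ifnar1 and Irf1 had 0 counts in the cerebellum of animal 11, while the kidney of animal 5 had 3 counts of Irf1 and 6 each of Irf9 and Irf5. The cerebellum of animal 2, labelled p150-negative, had 3.5 CPM of Irf7 and 9.3 CPM of Irf9, inside the p150-positive ranges. The other 2 libraries of that animal are among the 5 left out. Fits without these libraries are given below for some of the genotype results that rest on them. For Irf1 and Irf5 in kidney and cerebellum, and Irf8 in cerebellum, only ranges with each animal left out are given.

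Coordinates of the genes are from the GENCODE annotation of GRCm38. Ifnar1 (ENSMUSG00000022967) and Ifnar2 (ENSMUSG00000022971) are on chromosome 16, at 91485238 to 91507441 and 91372783 to 91405589, both on the plus strand. Ifngr1 (ENSMUSG00000020009) and Stat2 (ENSMUSG00000040033) are on the plus strand of chromosome 10, at 19591949 to 19610229 and 128270559 to 128292849. Irf9 (ENSMUSG00000002325) is at 55603571 to 55610030 on chromosome 14, Irf1 (ENSMUSG00000018899) at 53770014 to 53778374 on chromosome 11, Irf5 (ENSMUSG00000029771) at 29526625 to 29541871 on chromosome 6 and Irf8 (ENSMUSG00000041515) at 120736358 to 120756694 on chromosome 8, all on the plus strand. Irf7 (ENSMUSG00000025498) is on the minus strand of chromosome 7, at 141262706 to 141266481.

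The promoters of 4 members are shown because the results set an ISGF3 subunit and 3 IRFs side by side. The 250 bases before each annotated start were searched on both strands for a core of the ISRE, GAAA, any 2 bases and GAAA again, and for TTCNNNGAA, the core of the GAS element, which reads the same on both strands. Sequences are from RefSeq on GRCm38.p6, 5′ to 3′ on the gene's strand, with matches in capitals.
Stat2, chr10:128270248-128270497, plus strand: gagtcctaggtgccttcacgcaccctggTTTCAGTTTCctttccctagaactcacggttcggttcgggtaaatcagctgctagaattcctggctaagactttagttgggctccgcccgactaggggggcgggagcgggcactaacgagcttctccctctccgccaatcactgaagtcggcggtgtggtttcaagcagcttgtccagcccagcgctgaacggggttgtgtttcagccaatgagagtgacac
Irf7, chr7:141266425-141266674, minus strand: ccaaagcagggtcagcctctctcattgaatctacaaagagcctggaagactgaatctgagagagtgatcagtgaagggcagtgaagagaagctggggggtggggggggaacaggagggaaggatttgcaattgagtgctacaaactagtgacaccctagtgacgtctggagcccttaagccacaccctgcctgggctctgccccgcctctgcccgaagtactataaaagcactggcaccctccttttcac
Irf1, chr11:53769764-53770013, plus strand: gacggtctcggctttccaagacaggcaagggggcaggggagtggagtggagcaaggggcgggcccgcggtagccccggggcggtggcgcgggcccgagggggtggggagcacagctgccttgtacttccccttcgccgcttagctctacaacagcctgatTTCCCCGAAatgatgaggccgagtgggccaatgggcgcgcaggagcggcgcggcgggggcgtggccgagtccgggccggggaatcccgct
Irf8, chr8:120736108-120736357, plus strand: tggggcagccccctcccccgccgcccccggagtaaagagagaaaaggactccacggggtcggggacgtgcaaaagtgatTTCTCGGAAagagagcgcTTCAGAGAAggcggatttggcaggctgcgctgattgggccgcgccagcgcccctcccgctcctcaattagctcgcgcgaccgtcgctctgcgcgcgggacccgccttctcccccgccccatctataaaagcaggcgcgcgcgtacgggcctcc
The Stat2 window held 1 ISRE match, read on the opposite strand, with its last base 213 bases before the start. The Irf1 window held 1 GAS match ending 82 bases before the start, and the Irf8 window held 2, ending 163 and 145 bases before it. A GAS match was also present in the Ifnar2 window, 206 bases before the start. The windows of Irf7, Ifnar1, Ifngr1, Irf5 and both windows of Irf9 held neither set of letters, nor did the second annotated windows of Irf1 and Irf8. The RefSeq starts used here differ from the GENCODE gene ends given above for some genes. Both Irf9 windows lie inside the GENCODE gene, so the bases before its GENCODE start were not searched. The Irf7 window lies partly inside its GENCODE gene. The lack of a match in these windows therefore does not cover the whole promoter. Of 32851 promoter windows of this length, 2.98% held the ISRE core and 7.02% the GAS core.

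In p150-positive mice most members were read less in cerebellum than in liver, and Ifnar1 was the exception. Levels between genes are compared per length, as CPM per kilobase (kb) of annotated exon, since longer mRNAs yield more reads. Unspliced or truncated transcript models in the annotation lengthen the exon sum of some genes. The exon sum of Irf7, 3776 bases, spans the whole gene, introns included, and that of Irf9, 5386 bases, most of the gene. Their values per kb are therefore low estimates, and their ranks below are uncertain. Ifngr1, the ligand-binding chain of the interferon gamma receptor, had the highest mean per kb of the 9 in each tissue, at 15.8 ± 2.1 CPM per kb in cerebellum, 30.4 ± 11.4 in kidney and 21.0 ± 3.8 in liver (SD, n = 7 each). Without division by length, Irf7 had the higher mean of the pair in liver, 63.3 CPM against 59.9 CPM for Ifngr1. Ifnar1, the type I receptor chain bound by Tyk2, had 9.03 ± 1.35 CPM per kb in cerebellum, 8.90 ± 2.37 in kidney and 5.79 ± 2.43 in liver, with cerebellum and kidney within their spread of each other. Irf7 had 1.70 ± 0.98 CPM per kb in cerebellum, against 18.0 ± 9.6 in kidney and 16.8 ± 10.4 in liver.

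In liver the order by mean CPM per kb was Ifngr1, Ifnar2, Irf7, Irf1, Irf9, Stat2, Irf5, Ifnar1 and Irf8, and only the step from Ifnar1 (5.79 ± 2.43) to Irf8 (1.70 ± 0.78) exceeded the larger SD of the pair. In kidney the order was Ifngr1, Irf7, Ifnar2, Irf1, Ifnar1, Irf9, Irf8, Stat2 and Irf5, and the steps from Ifngr1 to Irf7 (18.0 ± 9.6) and from Irf9 (8.17 ± 4.39) to Irf8 (3.07 ± 0.92) exceeded it. In cerebellum the order was Ifngr1, Ifnar1, Ifnar2, Stat2, Irf9, Irf1, Irf7, Irf5 and Irf8. There the steps from Ifngr1 to Ifnar1, from Ifnar1 to Ifnar2 (6.81 ± 1.02) and from Stat2 (6.16 ± 1.93) to Irf9 (2.90 ± 1.40) exceeded the larger SD, while Irf5 (0.77 ± 0.42) and Irf8 (0.72 ± 0.33) could not be ordered.

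**Figure D1:**
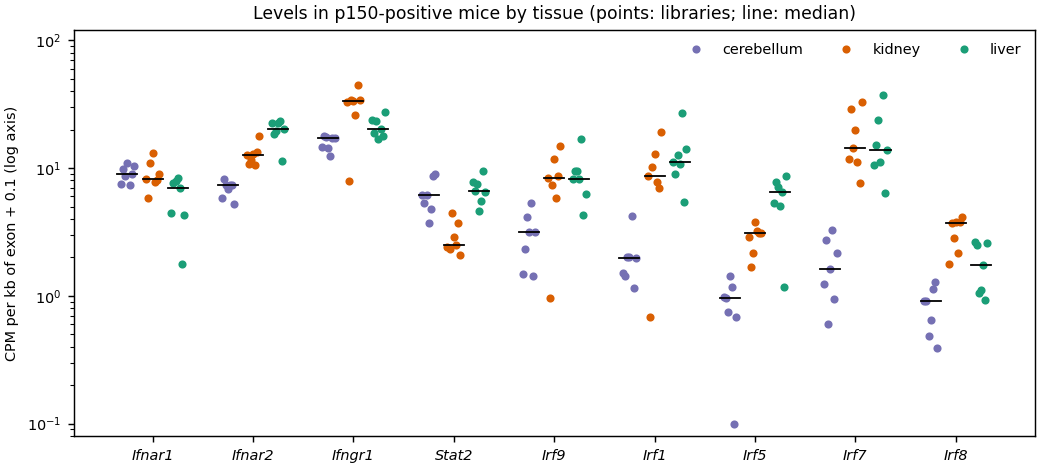
Levels of the 9 genes in p150-positive mice, as CPM per kb of exon plus 0.1 on a log axis; each point is a library (7 per tissue) and the line is the median. Ifngr1 had the highest mean per kb in every tissue, though not the highest value in every library. The mean of Irf7, whose exon sum spans the whole gene, was 1.70 CPM per kb in cerebellum, 18.0 in kidney and 16.8 in liver.

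Tested across all genes with edgeR's quasi-likelihood test (Benjamini-Hochberg adjustment over all genes, called at an adjusted p under 0.05), 8 of the 9 members were lower in cerebellum than in liver, where 31.2% of all genes were called lower. The exception was Ifnar1, at a log2 difference of -0.28 ± 0.36 (SE, adjusted p = 0.488). The members' median log2 difference was -2.45, against 0.18 over all genes, and Irf7 had the lowest value, -4.25 ± 0.54 (adjusted p = 2.04e-08). With scaling by library totals alone, the calls of Stat2 (-0.13) and Ifngr1 (-0.41) were lost. Between cerebellum and kidney, 7 members were called lower in cerebellum, with 27.0% of all genes called lower, and Stat2 was called higher, with 30.3% of all genes called higher. Stat2 differed by 1.01 ± 0.28 (adjusted p = 0.00308), which makes it the 1 member higher in cerebellum; with all labelled libraries it was 0.63 and lost its call (adjusted p = 0.0960). With the animal as a block the calls of Ifngr1 (-0.85, adjusted p = 0.125) and Irf9 (-1.55, adjusted p = 0.0555) were lost. Kidney against liver gave 4 members called lower in kidney, Ifnar2, Stat2, Irf1 and Irf5, where 20.5% of all genes were called lower. Ifnar2, the chain that binds interferon with high affinity, had a log2 difference of -1.46 ± 0.18 (adjusted p = 4.26e-08) and Stat2 -2.09 ± 0.25 (adjusted p = 2.97e-08). The call of Irf1 (-1.27 ± 0.43, adjusted p = 0.0152) was lost with the animal as a block (adjusted p = 0.0755). That of Irf7 (-0.75 ± 0.32, adjusted p = 0.0574) was gained with the block (adjusted p = 0.0318), and Irf7 and Irf9 were also called without the libraries of few genes. With scaling by library totals alone, Irf1 lost its call (-0.44) and Irf8 was called higher in kidney (0.84, adjusted p = 0.0320). The main tests scale by TMM and CPM by library totals, and for some members the direction between tissues depends on this choice. Mean Irf7 was 67.9 CPM in kidney and 63.3 CPM in liver, and mean Ifngr1 86.5 and 59.9 CPM, where the test gave -0.30 for Ifngr1. Mean Ifnar1 was 53.6 CPM in cerebellum and 34.4 CPM in liver, against -0.28 in the test.

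**Figure D2:**
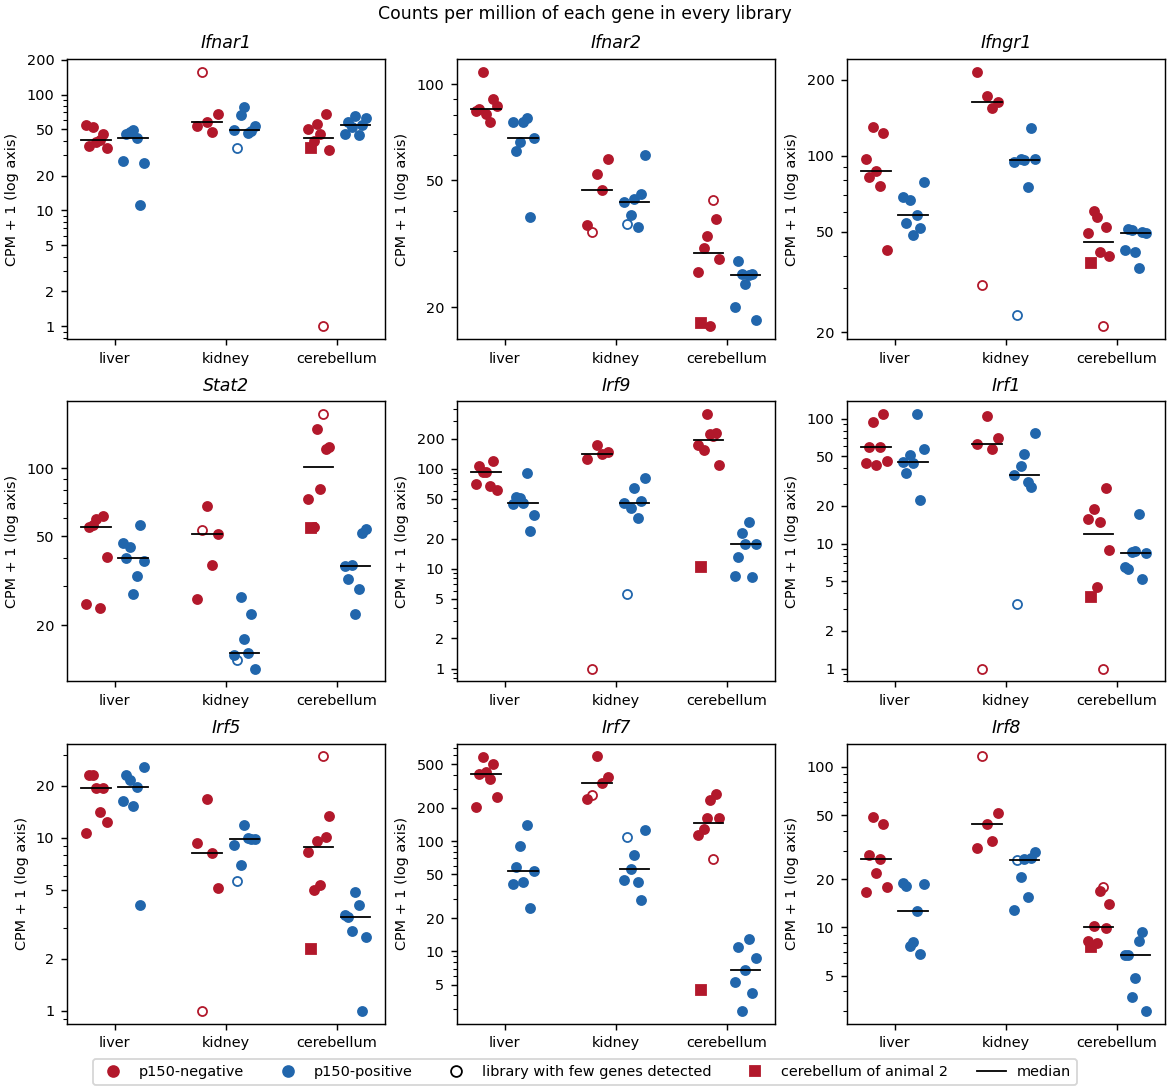
CPM plus 1 (log axis) of each gene in every library, by tissue, with p150-negative libraries in red left of p150-positive libraries in blue; lines are medians, open circles mark the 3 libraries with few detected genes and the square the cerebellum of animal 2. Irf7 of the 2 genotypes did not overlap in liver or kidney, and in cerebellum the square alone lay among the p150-positive values.

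Of the 3 receptor chains, Ifngr1 was called higher in p150-negative livers and none was called in kidney or cerebellum. Ifnar1 had a median of 39.5 CPM (33.8 to 53.2) in p150-negative livers and 40.9 CPM (10.0 to 48.7) in p150-positive livers. In kidney it had 52.0, 156.0, 56.7, 46.3 and 66.4 CPM in p150-negative animals 1, 3, 8, 9 and 16, against 33.9 to 76.9 CPM (median 48.4) in p150-positive animals. In cerebellum its range was 0 to 67.5 CPM (median 41.6) in p150-negative animals and 43.5 to 64.3 CPM (median 53.2) in p150-positive animals. The genotypes overlapped in all 3 tissues, and the extremes, 156.0 and 0 CPM, were both from libraries of few genes.

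Ifnar2 had 75.2 to 108 CPM (median 82.5) in p150-negative livers and 37.4 to 77.6 CPM (median 66.8) in p150-positive livers. Although 6 of the 7 p150-negative livers lay above every p150-positive one, its log2 fold change of 0.44 ± 0.16 did not pass the edgeR test (adjusted p = 0.0966); it passed with DESeq2 (adjusted p = 0.0478) and with a minimum count of 30 (adjusted p = 0.0495). In kidney and cerebellum Ifnar2 differed by 0.00 ± 0.25 and 0.26 ± 0.23 (log2, p150-negative over p150-positive). Ifngr1 had 41.3 to 129 CPM (median 85.8) in p150-negative livers and 47.6 to 77.7 CPM (median 57.1) in p150-positive livers, a log2 fold change of 0.63 ± 0.19 (adjusted p = 0.0368). Leaving out any of animals 1, 4, 6, 7, 8, 10, 12 and 14 ended that call, with adjusted p up to 0.0954, although the fold change stayed between 0.53 and 0.70. It also ended with library totals alone (adjusted p = 0.0803), with no filter (adjusted p = 0.0841) and with Xist as a covariate (adjusted p = 0.0523). In kidney Ifngr1 had 213.8, 29.7, 171.2, 152.8 and 162.7 CPM in p150-negative animals 1, 3, 8, 9 and 16, against 22.3 to 128 CPM (median 95.2) in p150-positive animals. Each group thus had its low value in a library of few genes, and without those 2 kidneys the difference was 0.78 ± 0.16 and was called (adjusted p = 0.00925).

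Of the ISGF3 subunits among the 9, Stat2 was called higher in p150-negative cerebella and Irf9 in p150-negative livers and cerebella. Stat2, the subunit that carries the transactivation domain, had 53.2 to 174 CPM (median 101) in p150-negative cerebella and 21.4 to 52.7 CPM (median 35.9) in p150-positive cerebella. The ranges did not overlap, although the lowest p150-negative value, from animal 2, lay next to the highest p150-positive one. The log2 fold change was 1.45 ± 0.26 (adjusted p = 0.00568), and 1.41 ± 0.23 without animals 2 and 11 (adjusted p = 0.00126). In kidney Stat2 had 25.1, 52.0, 67.2, 36.1 and 50.0 CPM in p150-negative animals 1, 3, 8, 9 and 16, against 11.9 to 25.8 CPM (median 14.1) in p150-positive animals. Only animal 1 lay inside the p150-positive range, and the log2 fold change of 1.33 ± 0.32 missed the threshold (adjusted p = 0.0808); without animal 3 it was 1.32 and was called (adjusted p = 0.0312), as it was with DESeq2 (1.37, adjusted p = 0.00103). In liver Stat2 had 23.0 to 60.4 CPM (median 53.9) in p150-negative animals and 26.7 to 55.2 CPM (median 39.0) in p150-positive animals, a log2 fold change of 0.17 ± 0.22 (adjusted p = 0.718).

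Irf9, the DNA-binding subunit of ISGF3, had 60.1 to 119 CPM (median 92.3) in p150-negative livers and 22.8 to 90.5 CPM (median 44.0) in p150-positive livers, with a log2 fold change of 0.89 ± 0.23 (adjusted p = 0.0119). The 2 ranges overlapped through 1 p150-positive liver, that of animal 12 at 90.5 CPM; the next highest p150-positive liver had 50.5 CPM. In cerebellum Irf9 had 9.3 to 351 CPM (median 192) in p150-negative animals and 7.2 to 28.0 CPM (median 16.5) in p150-positive animals, a log2 fold change of 3.51 ± 0.50 (adjusted p = 6.26e-04). The overlap came from animal 2 alone, and without animals 2 and 11 the fold change was 3.70 ± 0.32 (adjusted p = 4.79e-07). In kidney Irf9 had 124.3, 0, 172.3, 139.0 and 146.7 CPM in p150-negative animals 1, 3, 8, 9 and 16, against 4.6 to 79.0 CPM (median 44.7) in p150-positive animals. With all kidneys the log2 fold change was 1.38 ± 0.57 (adjusted p = 0.493); without the kidneys of animals 3 and 5, which held the lowest value of each group, it was 1.47 ± 0.20 (adjusted p = 6.47e-04). Irf9 overlaps Rnf31 on the same strand in the annotation, so part of its reads may have been assigned to neither gene or to the other.

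Irf7 was the 1 member called higher in all 3 tissues in the main fits. Others had positive log2 fold changes in all 3 without a call in each. For liver, kidney and cerebellum these were 0.89, 1.38 and 3.51 for Irf9 and 1.25, 1.11 and 0.99 for Irf8. Irf7 had 203 to 577 CPM (median 402) in p150-negative livers and 23.9 to 140 CPM (median 52.2) in p150-positive livers. In kidney it had 240.9, 260.0, 586.5, 334.6 and 384.5 CPM in p150-negative animals 1, 3, 8, 9 and 16, against 28.3 to 125 CPM (median 54.3) in p150-positive animals. Its cerebellar range was 3.5 to 265 CPM (median 145) in p150-negative animals and 1.9 to 12.1 CPM (median 5.8) in p150-positive animals. No value was shared between genotypes in liver and kidney, and in cerebellum 7 of 8 p150-negative libraries lay above every p150-positive one, the exception being animal 2.

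For Irf7 the log2 fold changes were 2.63 ± 0.31 in liver (adjusted p = 7.70e-06), 2.33 ± 0.34 in kidney (adjusted p = 0.00405) and 4.46 ± 0.61 in cerebellum (adjusted p = 4.11e-04). Without the libraries of few genes it was 2.61 ± 0.31 in kidney, and without animals 2 and 11 it was 4.78 ± 0.33 in cerebellum. The identifiers of the mice carry 4 prefixes whose meaning the labels do not give. Within prefixes the log2 ratio of the means of Irf7 was 2.25 to 4.39 in liver, 1.62 to 2.99 in kidney and 3.93 to 6.37 in cerebellum. For Irf9 it was 0.44 to 2.38 in liver and 2.71 to 4.98 in cerebellum, for Stat2 0.80 to 2.44 in cerebellum and for Ifngr1 -0.91 to 1.27 in liver. Per length, Irf7 was at 103 ± 35 CPM per kb in p150-negative livers (SD, n = 7), 95.7 ± 36.7 in p150-negative kidneys (n = 5) and 37.6 ± 22.5 in p150-negative cerebella (n = 8), the highest mean of the 9 members in each. In cerebellum Irf9 had 33.8 ± 18.5 CPM per kb, within the SD of Irf7, so these genes could not be ordered there. Undivided by length, Irf9 had the higher mean in p150-negative cerebella, 182 CPM against 142 CPM for Irf7. Irf7 overlaps Phrf1 on the other strand, and the libraries do not mark strand, so strand cannot tell their reads apart where they overlap. Over all libraries Irf7 had 20658 counts and Phrf1 3768. The strand setting of the counting is not given in the sources used here, and the effect of the overlap was not tested.

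Irf8 rose in p150-negative livers. It had 15.7 to 48.0 CPM (median 25.5) in p150-negative livers and 5.8 to 17.9 CPM (median 11.6) in p150-positive livers, a log2 fold change of 1.25 ± 0.29 (adjusted p = 0.00559), with 5 of 7 p150-negative livers above every p150-positive one. Within the 4 prefixes the log2 ratio of means was -0.06 to 2.89. In kidney Irf8 had 30.3, 115.2, 43.1, 33.4 and 50.8 CPM in p150-negative animals 1, 3, 8, 9 and 16, against 11.8 to 28.5 CPM (median 25.4) in p150-positive animals. Although the kidneys did not overlap, the log2 fold change of 1.11 ± 0.35 did not pass the edgeR test (adjusted p = 0.234) and passed with DESeq2 (1.16, adjusted p = 0.0286); the highest value came from the library of animal 3, and without the kidneys of animals 3 and 5 the log2 fold change was 0.83 ± 0.24 (adjusted p = 0.0627). In cerebellum it had 6.6 to 16.9 CPM (median 9.1) in p150-negative animals and 2.0 to 8.3 CPM (median 5.7) in p150-positive animals (0.99 ± 0.38, adjusted p = 0.366).

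Myeloid marker sums were also higher in p150-negative livers. The summed level of 11 monocyte and macrophage markers was 679 to 1549 CPM in p150-negative livers and 158 to 345 CPM in p150-positive livers, and 9 of the 10 tested markers were called higher. The summed level of 8 Kupffer cell markers was 1164 to 2884 CPM in p150-negative livers and 443 to 1104 CPM in p150-positive livers (7 of 8 called higher), and that of 8 neutrophil markers was 426 to 1645 CPM in p150-negative livers and 26.2 to 173 CPM in p150-positive livers (7 of 7 tested called higher). Every marker of these lists had counts in the p150-negative livers. Clec4f, specific to Kupffer cells, averaged 245 CPM in p150-negative livers and 167 CPM in p150-positive livers and was not called (log2 fold change 0.61 ± 0.28, adjusted p = 0.197). B cell sums were 5.6 to 49.3 CPM in p150-negative livers and 10.1 to 41.3 CPM in p150-positive livers. In the same order, conventional dendritic cell sums were 3.8 to 12.7 and 3.6 to 11.2 CPM, and T and NK cell sums 12.0 to 48.6 and 3.6 to 14.2 CPM. Few markers of these lymphoid and dendritic lists passed the count filter in liver: 2 of 5 for B cells, 1 of 5 for conventional dendritic cells and 2 of 6 for T and NK cells. None of those tested was called, although the tested T and NK markers had a median log2 fold change of 1.42. The other markers of these lists were not tested. The part of all these cell types in the levels of Irf8, Ifngr1 and the other members was not tested. In whole tissue, more cells of a type and more RNA per cell cannot be told apart. In kidney the monocyte and macrophage sum was 178 to 597 CPM in p150-negative animals and 126 to 311 CPM in p150-positive animals, with none of 10 tested markers called. The summed neutrophil markers were 108 to 241 CPM in p150-negative kidneys and 8.4 to 81.6 CPM in p150-positive kidneys, with no overlap, and 1 of 3 tested markers was called higher. In cerebellum the monocyte and macrophage sum was 128 to 383 CPM in p150-negative animals and 98.8 to 186 CPM in p150-positive animals, again with none of 10 called. Of the Kupffer list, 3 markers were tested and called higher there, C1qa, C1qb and C1qc, which are complement genes of macrophages and of microglia, while none of 5 tested microglia markers was called. The neutrophil sum was 34.2 to 371 CPM in p150-negative cerebella and 26.0 to 92.5 CPM in p150-positive cerebella, with none of 5 tested markers called.

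**Figure D3:**
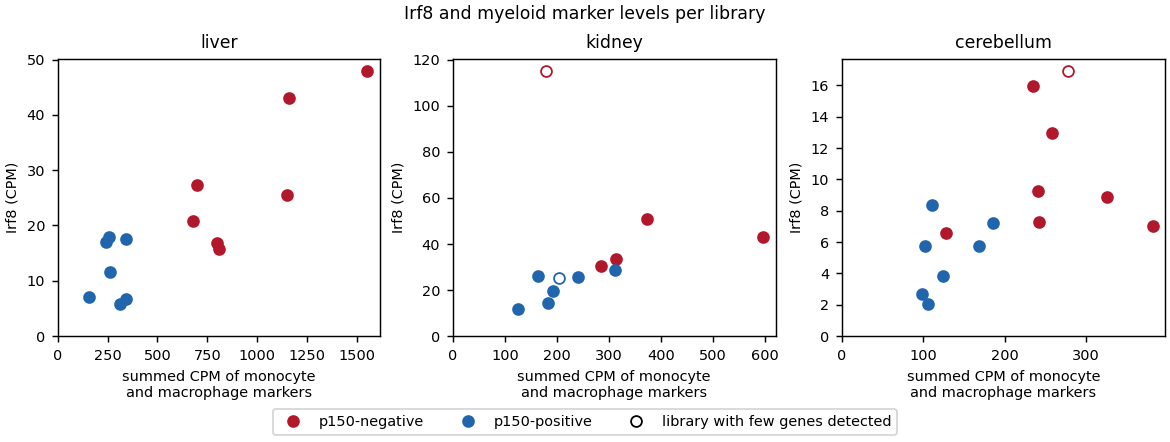
Irf8 (CPM) against the summed CPM of 11 monocyte and macrophage markers in each library, p150-negative in red and p150-positive in blue, with libraries of few genes open; axes differ between tissues. In liver the marker sums were 679 to 1549 CPM in p150-negative animals and 158 to 345 CPM in p150-positive animals, with no overlap.

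Irf1 and Irf5 were not called in any tissue. Irf1, a factor induced by interferon gamma, had 41.3 to 108 CPM (median 58.0) in p150-negative livers and 21.2 to 107 CPM (median 44.1) in p150-positive livers (log2 fold change 0.35 ± 0.28), and its values differed by 0.63 ± 0.58 in kidney and 0.49 ± 0.56 in cerebellum. When each animal was left out in turn, the Irf1 difference ran from 0.36 to 0.88 in kidney and from 0.18 to 0.79 in cerebellum. Irf5 differed by 0.00 ± 0.33 in liver and -0.10 ± 0.49 in kidney, where leaving out each animal gave -0.55 to 0.09. In cerebellum Irf5 had 1.3 to 28.6 CPM (median 7.9) in p150-negative animals and 0 to 3.8 CPM (median 2.5) in p150-positive animals. There 7 of 8 p150-negative values lay above every p150-positive one, yet the log2 fold change of 1.98 ± 0.66 missed the threshold (adjusted p = 0.245). The fold change was 1.56 to 2.16 when each animal was left out in turn. These values rest on at most 59 counts per library. In the p150-negative group the lowest, 1.3 CPM, is from animal 2 and the highest is from the library of animal 11. Irf5 also overlaps Tnpo3, a gene with more reads (11471 counts over all libraries against 1353), on the other strand. The libraries do not mark strand, so strand cannot tell the reads of this pair apart where they overlap. The effect on Irf5 was not tested.

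**Figure D4:**
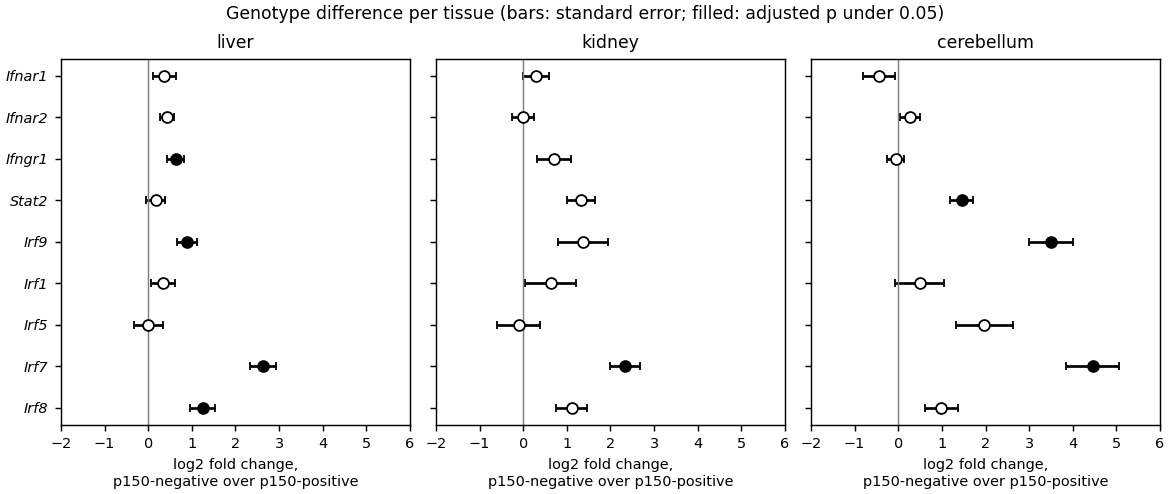
Log2 fold change of each member, p150-negative over p150-positive, in liver (7 against 7 libraries), kidney (5 against 7) and cerebellum (8 against 7); bars are standard errors and filled points have an adjusted p under 0.05. Irf7 was called in all 3 tissues, with 2.63 in liver, 2.33 in kidney and 4.46 in cerebellum.

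In all, 4 of 9 members were called higher in p150-negative livers, where 6.94% of 9843 tested genes were. In kidney 1 of 9 was, against 0.385% of 11957 genes, and in cerebellum 3 of 9, against 0.723% of 13146 genes. No member was called lower in any tissue. The members' median log2 fold change was 0.44 for liver, 0.71 for kidney and 0.99 for cerebellum, against -0.04, -0.07 and 0.00 over all tested genes. Leaving out the kidneys of animals 3 and 5 raised the kidney count to 4 of 9, Irf7, Irf9, Stat2 and Ifngr1. The count over all genes called in either direction rose to 532, against 83 with them. The share called higher without those kidneys is not given here, so the 4 of 9 cannot be set against the 0.385%.

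Whether the genotype effect differed between tissues was tested as an interaction of genotype and tissue. Between liver and cerebellum 2 members were called, both with the smaller log2 fold change in liver, and 1.31% of 14063 genes were called in that direction. The log2 fold change in liver minus that in cerebellum was -2.61 ± 0.56 for Irf9 (adjusted p = 0.00591) and -1.28 ± 0.34 for Stat2 (adjusted p = 0.0366). With the animal as a block Irf9 kept its call, Stat2 lost it (-1.31, adjusted p = 0.0763) and Irf7 gained it (-1.93, adjusted p = 0.00868). Without the cerebellum of animal 2, all 3 were called, at -2.79 ± 0.40 for Irf9, -1.37 ± 0.33 for Stat2 and -2.03 ± 0.49 for Irf7. No member was called between liver and kidney, where 1.5% of all genes were called in either direction, or between kidney and cerebellum, where 0.114% were; at an unadjusted p under 0.05, Stat2 had -1.15 ± 0.36 between liver and kidney, and Irf9, Irf5 and Irf7 had -2.10 ± 0.80, -2.08 ± 0.88 and -2.10 ± 0.72 between kidney and cerebellum. With the animal as a block, Irf7 was called between kidney and cerebellum (-2.52, adjusted p = 0.0300). The 3 interactions share libraries and are not independent of each other.

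The other genes of the pathway were counted in 7 lists of 54 genes. Of these, 26 passed the count filter in liver, 27 in kidney and 27 in cerebellum. The ligands were barely read: 20 interferon genes, Ifnb1, the alpha genes, Ifng, Ifnl2 and Ifnl3 among them, summed to at most 0.528 CPM in p150-negative livers and 0.594 CPM in p150-positive livers, 0.410 CPM in p150-negative kidneys and 0.214 CPM in p150-positive kidneys, and 0.523 CPM in p150-negative cerebella and 0 CPM in p150-positive cerebella. The few reads they had did not pass the count filter, so none was tested in any tissue.

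Of the 26 tested pathway genes, 7 rose in p150-negative livers and none fell. Over all tested genes in liver, 6.94% were called higher and 4.76% lower. They were Usp18 (log2 fold change 1.99 ± 0.26, adjusted p = 2.4e-05), which removes ISG15 and holds back signalling at Ifnar2, Socs3 (2.42 ± 0.43, adjusted p = 5.8e-04), a feedback inhibitor of cytokine receptors, the phosphatases Ptpn1 (1.18 ± 0.16) and Ptpn6 (1.30 ± 0.20), the receptor chain Il10rb (1.34 ± 0.25), Stat3 (0.71 ± 0.16) and Spi1 (1.77 ± 0.30), the myeloid partner of Irf8. In kidney 2 rose, Usp18 (2.80 ± 0.51, adjusted p = 0.0136) and Stat3 (0.93 ± 0.20, adjusted p = 0.0332). In cerebellum Usp18 rose (5.37 ± 0.64, adjusted p = 1.8e-04), and none of the tested pathway genes fell in kidney or cerebellum. Of all tested genes, 0.385% were called higher in kidney and 0.723% in cerebellum, and 27 pathway genes were tested in each. The interaction of liver against cerebellum was called for Usp18 (-3.37 ± 0.66, adjusted p = 0.00220), as it was for Irf9 and Stat2, and that of liver against kidney for Il10rb (1.36 ± 0.32, adjusted p = 0.0189). No Janus kinase and no IRF outside the 9 members was called in any tissue; Irf2 and Irf3 had the smallest p of that list, at -0.56 ± 0.27 and -0.32 ± 0.19 in liver.

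**Figure D5:**
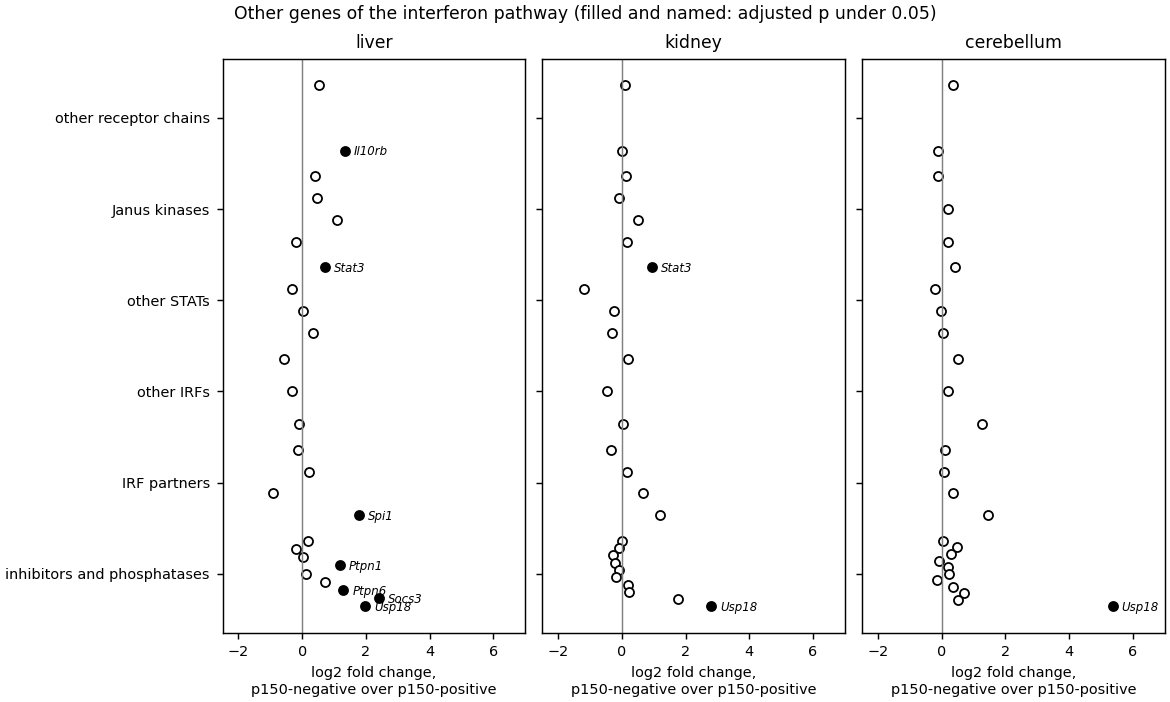
Log2 fold change, p150-negative over p150-positive, of the tested genes in 6 pathway lists; filled, named points have an adjusted p under 0.05 and the ligand list is missing because none of its 20 genes was tested. Usp18 was called in all 3 tissues, at 1.99 in liver, 2.80 in kidney and 5.37 in cerebellum.

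Among 9777 genes expressed in all 3 tissues, the genes most like each member were found by Pearson's r of log2 CPM after each tissue's mean had been taken off (41 libraries, several of them from the same mouse). Libraries share depth and quality, so these values describe the libraries and carry no test. Irf7 was closest to Ifit3b (0.97), Ifit3 (0.96) and Isg15 (0.95), all interferon-induced genes, and the same 3 led without the libraries of few genes (0.97 each). Irf9 was closest to Ddx58 (0.91), Sp100 (0.90) and Eif2ak2 (0.89), and without those libraries to Usp18 (0.95), Oasl2 (0.94) and Lgals3bp (0.93). Stat2 had lower values, led by Ifi27l2a (0.77), Ifi35 (0.77) and Ifi204 (0.77). With the mean of each tissue and labelled genotype taken off instead, the same pairs were lower: 0.88, 0.87 and 0.83 for Irf7, 0.87, 0.87 and 0.83 for Irf9, and 0.48, 0.47 and 0.38 for Stat2. The cerebellum of animal 2 stayed in its labelled group although its Irf7 and Irf9 lay in the p150-positive ranges. A difference the size of that between genotypes can therefore still enter these values. For several members the pattern rested on the libraries of few genes: Ifnar1 with Gtf2h3 was at 0.94 over 41 libraries and 0.55 over the other 38, and Irf1 with Morc3 at 0.90 and 0.53. Without those libraries Irf8 was closest to Laptm5 (0.83), Hcls1 (0.79) and Arhgdib (0.75), genes of blood cells, with Tbrg1, Apobec1 and Marcksl1 leading over all 41. Irf5 was closest to Tmem106a (0.84, and 0.71 without those libraries, where H2-T23 led at 0.73). Ifngr1 was closest to Sirpa (0.86, and 0.68 without them, where Camk2d led at 0.76), and Ifnar2 to Tgtp2 (0.68, and 0.70 without them, where Ecscr led at 0.72).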

How the data were processed

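Genotype, tissue and animal were taken from the labels. Per the labels' protocols, tissues were frozen in TRIzol, RNA was extracted with DNase digestion and libraries were made with the Nextera XT kit, which does not mark strand. Per the submitters' processing notes, FastQC 0.11.3, HTSeq 0.4.1, STAR 2.4.2a, SAMtools 1.2 and Picard 1.134 were used on GRCm38 (mm10); their order, the annotation and the strand setting are not given in the sources used here. The values the authors deposited are raw counts of reads per gene, and all 46 columns matched a sample. Of 53471 rows, 6 repeated an identifier and were used once; entries without a symbol held 0.267% of counts. The 9 members, the gene lists and the 5 libraries left out were chosen with earlier results of these data known.

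From the counts, CPM on library totals and CPM per kb of exon union (GENCODE annotation of GRCm38) were computed. Tests used edgeR 4.0.16 (R 4.3.3) with TMM scaling, a filter at a minimum count of 10 (total 15), glmQLFit and glmQLFTest, and Benjamini-Hochberg adjustment over all genes at 0.05, within each tissue or within each pair of tissues. DESeq2 1.42.0 was an alternative, as were other scalings and filters, the identifier prefix as a block, Xist as a covariate, all labelled libraries, and each animal left out. The scripts were tested on simulated data. All 9 members are named, 1 gene of the pathway lists is not reported here, and other pathway genes are named where called by genotype in a tissue, or in an interaction, or where they had the smallest p of their list; their differences between tissues are not reported.

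Same-numbered libraries come from the same animal. Deviations of an animal's liver and kidney from their group means correlated at 0.00 to 0.18 (11 animals), of liver and cerebellum at -0.01 to 0.18 (13) and of kidney and cerebellum at -0.13 to 0.15 (11). Within a tissue, each genotype p measures the spread between animals. The main tests between tissues took libraries of the same animal as independent, so their p mixes spread between and within animals.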

Additional observations from a re-analysis of the deposited data

Results flagged for a closer look

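Effects of genotype that differed between tissues were found for Irf9, whose log2 fold change in liver lay -2.61 from that in cerebellum, and for Stat2, at -1.28, both by the test of the interaction itself.

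Single libraries far from the others of their group were found in 10 of the 54 groups of a gene, tissue and genotype that were examined. The limits used give about 1 in 20 such groups by chance for independent, normally distributed values. The groups share libraries and CPM need not be normal, so the 10 cannot be measured against that rate. Of the 10, 4 came from libraries with few detected genes. The kidney of animal 3 (p150-negative) had 156.0 CPM of Ifnar1, 115.2 CPM of Irf8 and 0 CPM of Irf9, and the cerebellum of animal 11 (p150-negative) had 28.6 CPM of Irf5. In liver, animal 8 (p150-negative) had 108.3 CPM of Ifnar2 and animal 13 (p150-positive) 37.4 CPM. The kidney of animal 15 (p150-positive) had 58.8 CPM of Ifnar2. Animal 12 (p150-positive) stood high in liver with 90.5 CPM of Irf9 and 107.3 CPM of Irf1, and in cerebellum with 16.2 CPM of Irf1.

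Among the libraries left out for holding RNA of another organ, 2 that are labelled kidney had more Irf7 than any p150-positive kidney (highest 124.7 CPM). They were those of animal 11 (p150-negative), with 769.3 CPM, and of animal 12 (p150-positive), with 261.4 CPM; the organ differs, so these values cannot be set against the kidneys.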

How the results depend on the processing

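Of 115 recomputed counts of members, 110 stayed within 1.5 times the reported count. The kidney count of 1 member became 3 with DESeq2, 0 with all labelled libraries, 1 to 3 when each animal was left out (3 without animal 3) and 4 without the libraries of few genes, an alternative chosen after seeing the data, as was leaving out the cerebella of animals 2 and 11. The kidney-cerebellum interaction count of 0 became 1 with the animal as a replicate block; the block changed no call in the liver-kidney interaction, and its other effects stand in the report. Of 1031 recomputed fold changes of members, 993 kept their side of the threshold, 22 lost a call, 16 gained one and none of the called values changed sign. With all labelled libraries, Irf9 lost its call in liver (0.72, adjusted p = 0.225) and Irf7 in kidney (1.95, adjusted p = 0.655). Counts over all genes moved most in kidney, where 83 called genes became 307 with DESeq2, 141 with no filter, 32 with the prefix as a block, 1 with all labelled libraries and 34 to 211 when each animal was left out. In liver 1152 became 740 with all labelled libraries, and in cerebellum 131 became 289 with DESeq2 and 219 without animals 2 and 11. The interaction counts of 376 (liver-cerebellum) and 17 genes (kidney-cerebellum) became 196 and 9 with the animal block. Liver-kidney, at 1.5% of genes in the report, gave 119 genes with the block and 71 with all labelled libraries, and kidney-cerebellum gave 26 in 1 fit of all tissues, 8 to 27 when each p150-negative kidney was left out, 73 without the libraries of few genes and 33 without the cerebellum of animal 2. The cause was not tested. Depth limits Irf5 and Irf8, read from fewer than 100 counts in most libraries.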
